A study of Mus musculus with 79 samples.

Results

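The genes described here encode 9 enzymes that add or remove methyl groups on lysine 36 of histone H3 (H3K36), out of 25965 genes in the deposited expression table. They were listed by name for what the enzymes do, with earlier results of these data known. The methyltransferases, or writers, were Nsd1, Whsc1 (also called Nsd2), Whsc1l1 (also called Nsd3), Ash1l and Setd2, and the demethylases, or erasers, were Kdm2a, Kdm4a, Kdm4b and Kdm4c. All 9 were found in the table and all 9 passed the filter on low expression. On GRCm38 the writers lay at chr13:55209782-55318325 (Nsd1), chr5:33820725-33897975 (Whsc1), chr8:25601601-25719667 (Whsc1l1), chr3:88965812-89079373 (Ash1l) and chr9:110532597-110618633 (Setd2), all on the plus strand. The erasers lay at chr19:4316144-4398285 (Kdm2a) and chr4:118136957-118180043 (Kdm4a) on the minus strand, and at chr17:56326062-56402870 (Kdm4b) and chr4:74242497-74405860 (Kdm4c) on the plus strand.

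The data came from hypothalamus of mice on the C57BL/6Babr background at 14 weeks of age. Wild-type mice (+/+) were compared with Δ/D329A mice. These carried a D329A substitution in the PWWP domain of the DNA methyltransferase DNMT3A on the paternal allele. Their maternal Dnmt3a allele was deleted in the oocyte by Zp3-Cre recombination (Δ, without exon 18). No wild-type Dnmt3a allele was present, and the study describes D329A as the only functional one. The RNA and ChIP data held no Δ/+ or +/D329A animals, so the substitution and the loss of 1 allele could not be told apart. RNA-seq covered 5 +/+ and 4 Δ/D329A animals, and native ChIP-seq for H3K4me3, H3K27me3 and H3K36me3, with input, covered 3 animals of each genotype. Each library was 1 animal, and the hypothalamus was not sorted into cell types, so a mean over cell types was measured and fewer cells of a type could not be told apart from less RNA per cell.

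RNA libraries held 5614871 to 9970362 gene reads in +/+ and 3874625 to 6601675 in Δ/D329A, and ChIP and input libraries held 12676361 to 30207875 uniquely mapped reads. A supplementary figure legend of the study gives the RNA animals as female. A main figure legend, on tracks of gene expression and of the ChIP marks, gives male hypothalamus for all. Xist was at 13.9 to 24.1 RPKM in all 9 RNA libraries with 4 chromosome Y genes at or below 0.0205 RPKM, whereas chromosome X coverage in all 6 inputs was 0.456 to 0.476 of the autosomal median. The same 4 chromosome Y genes were at 0.365 to 0.537 of the autosomal median in the inputs, while the median over all 64 chromosome Y gene bodies was 0.00963 to 0.013. By these values the 9 RNA animals were female and the 6 ChIP animals male. RNA and chromatin were thus not from the same animals, and any comparison of expression with marks is also across sex. Markers of hypothalamic neurons were present (10 of 10 tested, summed level 360 to 749 RPKM in +/+ and 420 to 628 in Δ/D329A), and no gene of any cell type list passed the test. Summed levels of oligodendrocyte markers were 261 to 404 RPKM in +/+ and 173 to 328 in Δ/D329A, while striatal markers, of which 2 of 3 were measured, summed to 1.29 to 2.20 against 3.08 to 3.54 RPKM. The part of these shifts in the results below was not tested. Dnmt3a RNA, which was counted over the whole gene and does not isolate exon 18, was 1.91 ± 0.16 log2 RPKM in +/+ (SD, n = 5) and 1.64 ± 0.092 in Δ/D329A (SD, n = 4), with overlapping groups (exact permutation test, two-sided, p = 0.0238; limma over all genes, adjusted p = 0.355).

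Methylation of H3K36 marks transcribed chromatin. NSD1, NSD2, NSD3 and ASH1L place mono- and dimethylation over broad regions, whereas SETD2 travels with elongating RNA polymerase II and places trimethylation (H3K36me3) over the bodies of active genes. KDM2A removes the lower methylation states and the KDM4 enzymes remove H3K36me3 as well as H3K9 methylation, and the PWWP domain of DNMT3A, the domain changed in D329A, is a reader of H3K36 methylation. Of the other marks measured, H3K4me3 lies at active starts and H3K27me3 lies at genes held silent by Polycomb.

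Transcripts of all 9 enzymes were present at moderate to high levels in the hypothalamus. Levels were compared between genes as log2 RPKM, which corrects for transcript length. Ash1l and Nsd1 were the most abundant, with geometric means over the 9 libraries of 13.5 and 13.1 RPKM, followed by Setd2 at 8.35 and Whsc1 at 7.06 RPKM. The erasers Kdm4b, Kdm2a and Kdm4a followed at 5.99, 5.15 and 4.58 RPKM, and Whsc1l1 and Kdm4c were lowest at 3.75 and 3.69 RPKM. Mean levels lay between the 63.4th percentile (Kdm4c) and the 91.0th percentile (Ash1l) of the 17839 genes tested. Neighbours in this order were separated unevenly. Nsd1 exceeded Setd2 in 9 of 9 libraries, by 0.65 log2 RPKM on average, and Setd2 exceeded Whsc1 in 9 of 9 by 0.24. Ash1l and Nsd1 differed by 0.04 on average with an SD of 0.15, Ash1l being higher in 5 of 9 libraries, and Whsc1l1 and Kdm4c differed by 0.03 with an SD of 0.14, so neither pair differed beyond its spread.

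**Figure D1:**
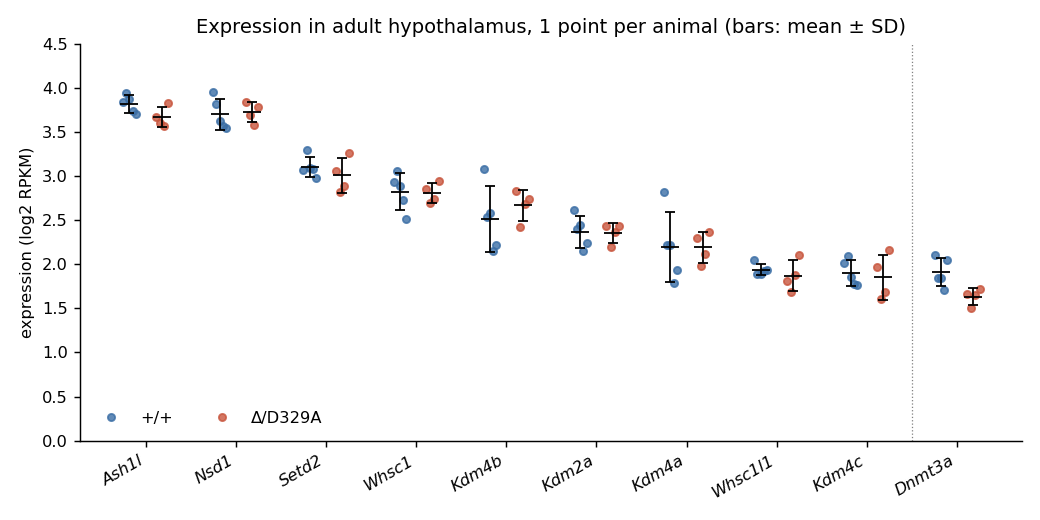
Expression of the 9 enzymes in log2 RPKM (vertical axis) in each RNA library of +/+ (n = 5) and Δ/D329A (n = 4) hypothalamus, with bars for the mean and SD and Dnmt3a at the right. The genotypes overlap for all 9 genes, and Ash1l and Nsd1 are the highest.

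The comparison of genotypes asked whether RNA of the enzymes that set the mark changed where the PWWP reader was changed and 1 Dnmt3a allele deleted. RNA of none of the 9 enzymes passed the test. By limma, 0 of 9 passed an adjusted p of 0.01, against a background of 0.107% of genes tested (19 of 17839). At an unadjusted p under 0.05 there were 0 of 9 by limma, beside 1360 of the 17839 genes. There were also 0 of 9 by edgeR and DESeq2 on recovered reads, beside 2266 of 13890 and 2297 of 20381 genes. The groups overlapped for all 9, against 1.78% of genes that were higher and 1.23% that were lower in Δ/D329A without overlap.

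Among the writers, Ash1l, which dimethylates H3K36 and is linked to Trithorax function, had the smallest p. Its level was 3.84, 3.94, 3.88, 3.74 and 3.70 log2 RPKM in +/+ and 3.67, 3.60, 3.58 and 3.83 in Δ/D329A. Of the 4 Δ/D329A libraries, 3 lay below every +/+ library and the other lay within their range. The difference was -0.15 (95% confidence interval -0.41 to 0.11, limma adjusted p = 0.661; exact permutation test, two-sided, p = 0.0635, where the smallest possible value is 0.00794).

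Setd2, the enzyme that places H3K36me3, was at 3.08, 3.29, 3.09, 3.08 and 2.98 log2 RPKM in +/+ and 3.06, 2.82, 2.88 and 3.27 in Δ/D329A. Both the lowest library and the second highest were Δ/D329A. The difference of -0.09 had an interval of -0.39 to 0.20 (limma adjusted p = 0.878). Nsd1, which dimethylates H3K36, was at 3.95, 3.82, 3.62, 3.57 and 3.55 in +/+ and 3.84, 3.70, 3.58 and 3.79 in Δ/D329A, with all Δ/D329A values inside the +/+ range. Its difference of 0.03 had an interval of -0.27 to 0.32 (limma adjusted p = 0.977). Whsc1 and Whsc1l1, the other NSD enzymes, differed by -0.01 (-0.32 to 0.30) and -0.07 (-0.35 to 0.22). Whsc1 overlaps Whsc2 on the opposite strand, where both genes share their 3′ ends, and no strand setting is given for the deposited values, so reads of the shared stretch may be split between them.

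Of the erasers, Kdm4a and Kdm4b had the largest SDs of the 9 enzymes in +/+ (0.40 and 0.37). Kdm4a, a demethylase of H3K36me3 and H3K9me3, lay between 1.79 and 2.83 log2 RPKM in +/+ animals, beside 1.99 to 2.36 for Δ/D329A. Kdm4b, its close relative, covered 2.15 to 3.08 in +/+ animals, beside 2.42 to 2.84 for Δ/D329A. The first +/+ library was the highest for both and for 4 of the 9 enzymes in all, and its median over all genes tested, 1.49, was above the 0.81 to 1.22 of the other libraries. Kdm4b had the largest positive difference of the 9, 0.16, with an interval of -0.27 to 0.58. Differences were -0.004 for Kdm4a (-0.45 to 0.45), -0.01 for Kdm2a, which removes dimethylation (-0.31 to 0.29), and -0.05 for Kdm4c (-0.39 to 0.29). Kdm4c rested on the fewest reads, 186 to 434 per library, and overlaps the weakly covered antisense gene A230083N12Rik.

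Other genes of the H3K36 pathway were also without calls. Of 11 other writers and erasers, 11 were tested, 0 passed and 0 had an unadjusted p under 0.05 by limma, with 9 higher and 2 lower and a median difference of 0.07, beside 0.07 over all genes tested. Jmjd5, a JmjC protein described as an H3K36me2 demethylase, was at 0.13 log2 RPKM in +/+ and 0.51 in Δ/D329A (limma adjusted p = 0.477). Setd5 was at 2.68 and 2.56 (limma adjusted p = 0.794), and Kdm2b, a paralogue of Kdm2a, at -0.08 and 0.06 (limma adjusted p = 0.842). Of 24 readers and PWWP proteins, 22 were tested and 0 passed, with 13 higher, 9 lower and a median of 0.03. In that list 1 gene, the PWWP protein Pwwp2b, had an unadjusted p under 0.05, at 0.06 ± 0.38 in +/+ (SD, n = 5) and 0.68 ± 0.21 in Δ/D329A (SD, n = 4; limma adjusted p = 0.355). After Dnmt3a, the next by p was Pwwp2a, the paralogue of Pwwp2b, at 1.33 and 1.66 (limma adjusted p = 0.433). Of 11 elongation partners and antagonists 8 were measured, 8 were tested, 0 passed and 0 had an unadjusted p under 0.05, with 6 higher and 2 lower and a median of 0.11. Ssrp1, a subunit of the histone chaperone FACT, had the smallest p of that list, at 3.36 in +/+ and 3.60 in Δ/D329A (limma adjusted p = 0.667). Iws1, which links SETD2 to elongating polymerase, was at 1.92 and 1.78 (limma adjusted p = 0.788), and Hnrnpl, a partner of SETD2, at 3.33 and 3.46 (limma adjusted p = 0.789).

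Expression profiles (median-centred log2 RPKM) most like those of 8 of the enzymes over the 9 libraries are given as a description, since the libraries share depth and composition. The closest gene was Rock2 for Whsc1 (Pearson r = 0.984), Brf1 for Kdm4b (0.985), Sfpq for Whsc1l1 (0.979), Bai3 for Ash1l (0.978) and Pcm1 for Setd2 (0.978). It was also Sgip1 for Kdm2a (0.974), Cntn3 for Nsd1 (0.971) and AW011738 for Kdm4a (0.952), each of 17838 genes.

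Active chromatin at the starts of these genes was examined next, over 1500 bp before to 500 bp after the start given in the expression table. ChIP values are reads in a tile scaled to the library's uniquely mapped reads (RPM). At 7 of the 9 starts H3K4me3 was more than 2-fold above input in all 6 animals, against 53.5% of all promoters. It was strongest at Setd2 (35.4 ± 1.1 RPM in +/+, SD, n = 3, 47.1-fold over input), Whsc1 (29.6 ± 1.7, 42.6-fold) and Whsc1l1 (33.3 ± 1.1, 36.3-fold). Kdm2a, Kdm4a and Kdm4b followed at 25.5-, 25.2- and 22.7-fold, and Nsd1 was at 9.51-fold, its highest tile within 2000 bp lying 1218 bp past the start. The start of Ash1l was at 0.751-fold, and that of Kdm4c at 0.200-fold, below input in all 6 animals, as were 32.7% of promoters.

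H3K4me3 of Kdm4c and Ash1l lay at other annotated starts. RefSeq gives Kdm4c a further start 9382 bp inside the gene, and the sequences before its 2 starts are shown because they differ in CpG content, the dinucleotide at which DNMT3A methylates and which is dense at most H3K4me3-marked starts. Both are the 250 bases before a RefSeq start on the plus strand (RefSeq, GRCm38.p6), at chr4:74242247-74242496 and chr4:74251629-74251878, with each CpG in capitals:
Kdm4c first start: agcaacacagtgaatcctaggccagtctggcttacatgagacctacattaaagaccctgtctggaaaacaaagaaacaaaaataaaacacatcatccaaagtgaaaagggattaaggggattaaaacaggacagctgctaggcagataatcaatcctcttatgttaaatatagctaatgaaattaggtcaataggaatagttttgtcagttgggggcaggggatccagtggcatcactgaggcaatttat
Kdm4c further start: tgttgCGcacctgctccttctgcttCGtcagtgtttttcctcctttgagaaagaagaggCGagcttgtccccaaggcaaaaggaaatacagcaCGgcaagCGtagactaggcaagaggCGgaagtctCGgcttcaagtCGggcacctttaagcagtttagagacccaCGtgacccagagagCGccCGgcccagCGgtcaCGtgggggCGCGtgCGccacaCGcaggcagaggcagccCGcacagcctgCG
The first stretch held 0 CpG, as did 7.87% of the 32851 RefSeq promoters, and the second held 19, a count reached or passed by 19.7% (the median was 6). For comparison, the same window held 31 CpG at Setd2, reached by 5.19% of promoters, and 12 at Kdm4a, reached by 33.5%. Promoter sequences of 3 of the 9 genes were matched.

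At the first Kdm4c start, H3K4me3 was 0.163 ± 0.056 RPM in +/+ and 0.118 ± 0.15 in Δ/D329A (SD, n = 3 each). At the further start it was 30.8 ± 1.2 in +/+ (29.7 to 32.0) and 29.0 ± 6.6 in Δ/D329A (22.1 to 35.2), which was 37.9-fold over input. H3K4me3 was thus present at the CpG-rich further start of Kdm4c and not at its CpG-free first one, in both genotypes. At the further start the genotypes overlapped (difference -0.11 on the log2 scale, exact permutation test, two-sided, p = 0.8, where the smallest possible value with 3 against 3 is 0.1). The antisense gene A230083N12Rik (chr4:74250324-74251714, minus strand) also starts within the window of the further start, so the mark there may belong to either gene. H3K27me3 was close to input at the first start (0.827 ± 0.12 RPM in +/+, 0.897 ± 0.15 in Δ/D329A, 0.874-fold over input) and depleted at the further one (0.204-fold).

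RefSeq begins Ash1l 15398 bp upstream of the start in the expression table. There H3K4me3 was 31.0 ± 2.5 RPM in +/+ (28.7 to 33.7) and 22.3 to 36.1 in the 3 Δ/D329A animals, 30.6-fold over input, beside 0.756 ± 0.22 and 0.491 ± 0.12 at the start in the table (SD, n = 3). The genotypes again overlapped (difference -0.08, exact permutation test, two-sided, p = 0.9). H3K36me3 had the opposite placing, at 0.250-fold over input at the RefSeq start and 1.198-fold at the start in the table, the 95.3th percentile of promoters. These windows at RefSeq starts were added after the values at the table's starts had been seen.

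Kdm2a carried a further H3K4me3 domain within the gene. An inner RefSeq transcript model starts 64146 bp downstream of the gene's start, and a shorter form of KDM2A without the demethylase domain is known to arise from an inner promoter. H3K4me3 there was 17.4 ± 1.6 RPM in +/+ and 17.4 ± 3.7 in Δ/D329A (SD, n = 3), 17.0-fold over input (difference -0.02, exact permutation test, two-sided, p = 0.9). The highest tile of this inner domain, 65280 bp past the start, was at 32.8 RPM in +/+, beside 39.1 in the highest tile within 2000 bp of the main start.

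**Figure D2:**
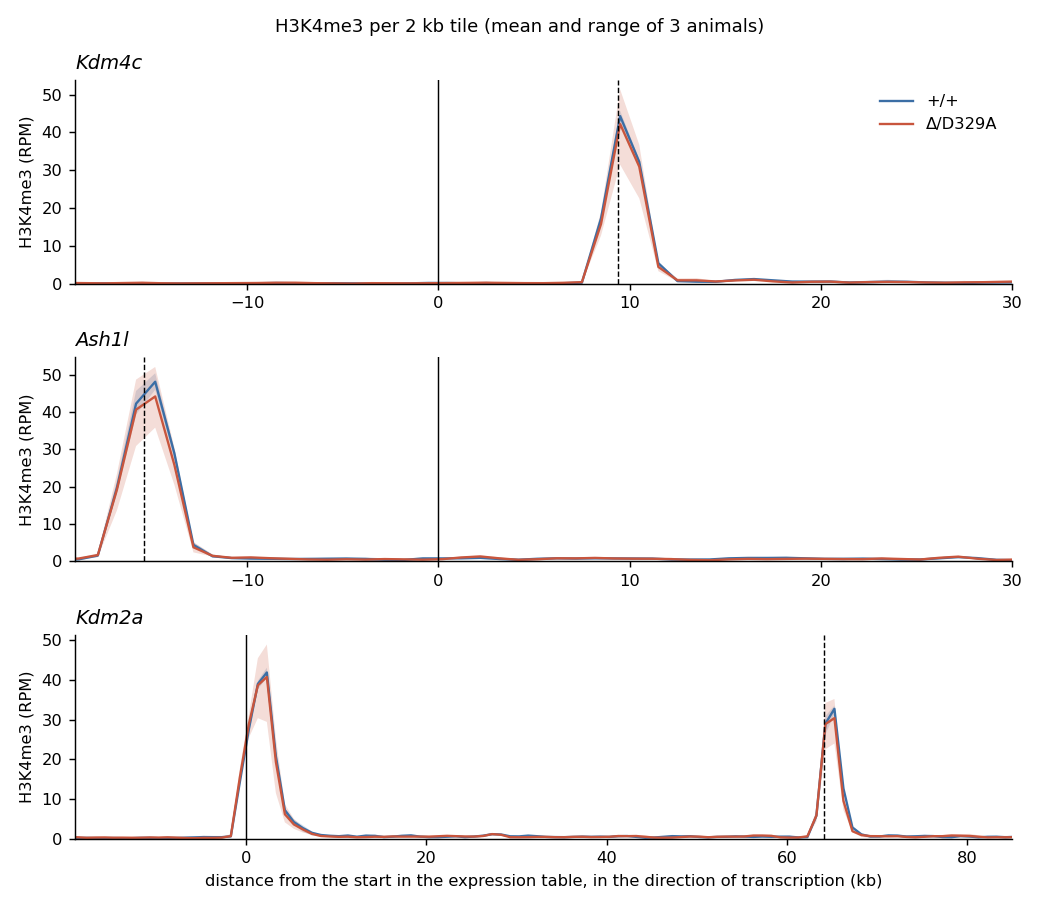
H3K4me3 in RPM per 2000 bp tile at Kdm4c, Ash1l and Kdm2a against distance from the start in the expression table (kb), with a line and a shaded band for each genotype (mean and range, n = 3), a solid vertical line at the table's start and a dashed one at another RefSeq start. H3K4me3 rises to 44.3 RPM at the further start of Kdm4c and to 48.2 RPM upstream of the Ash1l start in +/+, and is flat at the starts of both in the table.

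The widths of the H3K4me3 domains (adjoining tiles at least 4-fold over input) were equal in the 2 genotypes. The domain of Nsd1 spanned 9 kb, that of Kdm2a 8 kb, those of Whsc1, Whsc1l1 and Setd2 6 kb, and those of Kdm4a and Kdm4b 5 kb. No enzyme's promoter passed the test for any mark (limma, adjusted p of 0.05, 0 of 9 each). The background was 0.0% of promoters for H3K4me3 and H3K27me3 and 0.0231% for H3K36me3. At an unadjusted p under 0.05 there was 1 enzyme for H3K4me3, beside 900 of 25952 promoters. There were 0 for H3K27me3 and H3K36me3, beside 2309 and 1707 of 25952. After its filter on low counts, edgeR tested 8 of the enzymes for H3K4me3, 1 for H3K27me3 and 5 for H3K36me3, and called 0 of them. Over all promoters it called 51 of 17577, 239 of 15741 and 8 of 15028.

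Nsd1 was the enzyme with an unadjusted p under 0.05 in H3K4me3, with values of 7.68, 7.02 and 8.28 RPM in +/+ and 8.91, 9.11 and 11.4 in Δ/D329A. All Δ/D329A animals were above all +/+ animals, which held for 1 of 9 enzymes and 1.83% of promoters. The difference was 0.34 on the log2 scale (95% confidence interval 0.02 to 0.67, limma unadjusted p = 0.0401, adjusted p = 1.0), with a range of 0.23 to 0.41 without each animal in turn. The highest tile within 2000 bp of this start was at 29.5 RPM in +/+ and 31.9 in Δ/D329A. At the 8 other starts in the table the groups overlapped, against 4.22% of promoters lower without overlap. The first Δ/D329A H3K4me3 library had a higher median over all tiles, 0.314 RPM against 0.0789 to 0.200 in the other libraries. The signs of these small differences changed with the scaling: 6 of 9 were lower in Δ/D329A, and centring each library on its median moved the median of all promoters from -0.07 to 0.14 and left 7 of the 9 enzymes higher.

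H3K27me3 was low at these starts, below input in all 6 animals at 8 of 9, against 44.9% of promoters. H3K36me3 was likewise below input in all 6 animals at 8 of 9 starts, against 76.3%, with Ash1l as the exception described above. Setd2 had H3K36me3 promoter values of 0.219, 0.166 and 0.236 RPM in +/+ and 0.292, 0.320 and 0.367 in Δ/D329A. The genotypes did not overlap there, as at 8.99% of promoters in this direction, and the difference of 0.48 did not pass the test (limma adjusted p = 0.780). Over all promoters the median difference was 0.11, and -0.10 after centring each library on its median.

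**Figure D3:**
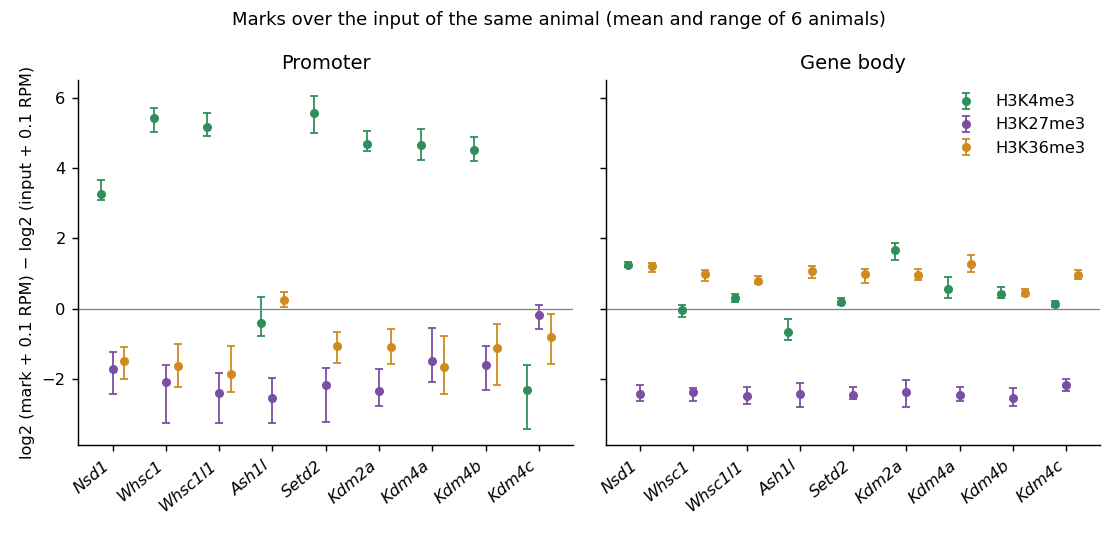
Level of each mark relative to input (log2, pseudocount of 0.1 RPM) at the starts and over the bodies of the 9 enzymes, as the mean (point) and range (bar) over 6 animals. H3K4me3 is high at 7 starts and low at the table's starts of Ash1l and Kdm4c, and H3K36me3 is above input over all 9 bodies.

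Bodies of the 9 genes, from 500 bp after the start to the end, carried H3K36me3 above input in every animal. It was 2.41-fold over input at Kdm4a, 2.34-fold at Nsd1 and 2.09-fold at Ash1l. Whsc1, Setd2, Kdm4c and Kdm2a were at 1.95- to 1.99-fold, Whsc1l1 at 1.73-fold and Kdm4b at 1.35-fold. Levels over 2-fold in all 6 animals were found for 2 of 9 enzymes, beside 7.93% of all gene bodies.

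The mark was not even along the genes. Nsd1 was covered throughout, at 0.85 to 1.53 on the log2 scale over input in +/+ in every one of 10 equal segments of its body. Kdm4b was below input over its first 3 segments (-0.89, -0.77 and -0.60) and above it from the next segment on. Whsc1l1 also began below input, at -1.10, -0.17 and -0.02 over its first 3 segments. In Kdm4c the segment that holds the further start was at -0.77 and the next at 0.89. Kdm2a was interrupted: its 8th segment, which holds the inner H3K4me3 domain, was at 0.01 in +/+ and 0.03 in Δ/D329A, between 1.67 in the segment before and 1.11 in the segment after in +/+. Its 1st and 4th segments were also near input, at 0.04 and 0.14 in +/+.

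**Figure D4:**
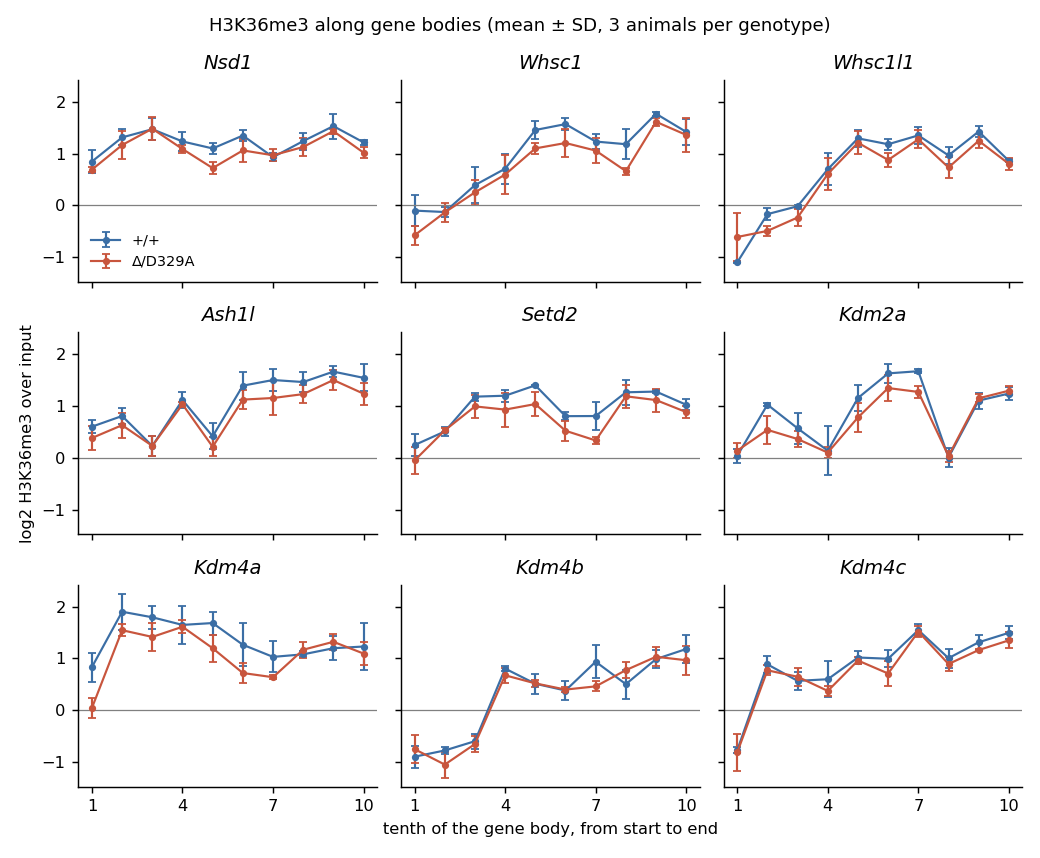
H3K36me3 relative to input (log2, vertical axis) in each of 10 equal segments of the 9 gene bodies from start to end, with a line for each genotype (mean and SD, n = 3). Kdm2a drops to 0.01 in the 8th segment in +/+, and Kdm4b and Whsc1l1 are below input in their first 3 segments.

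H3K36me3 over the bodies was lower in Δ/D329A for 8 of the 9 enzymes without overlap of the animals, but none passed the test. By limma 0 of 9 were called at an adjusted p of 0.05, as were 0.0% of gene bodies (0 of 20387, with 3586 at an unadjusted p under 0.05), and edgeR on recovered reads called 125 gene bodies and 0 of the 9. At an unadjusted p under 0.05 there were 8 of the 9 by either tool, beside 3586 of 20387 gene bodies by limma and 3198 of 20043 by edgeR. Without overlap in this direction were 16.7% of all gene bodies, and the share was greater at bodies rich in the mark. With gene bodies split by level into 10 equal classes, it was 23.4% in the class that holds Kdm4b, 29.1% in that of Whsc1l1, 35.5% in that of Whsc1, Ash1l, Setd2, Kdm2a and Kdm4c, and 42.0% in that of Nsd1 and Kdm4a. Most gene bodies of those classes were lower in Δ/D329A, between 74.4% and 91.6%, with medians of -0.07 to -0.12.

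The erasers held the largest and the smallest difference. Kdm2a was at 1.95, 1.95 and 1.82 RPM in +/+ and 1.58, 1.68 and 1.53 in Δ/D329A. Every Δ/D329A animal was below every +/+ animal, and the difference was -0.24 (95% confidence interval -0.37 to -0.12, limma unadjusted p = 0.00260, adjusted p = 0.194). Kdm4a was at 2.36, 2.48 and 2.61 in +/+ and 2.13, 2.30 and 2.13 in Δ/D329A (-0.18). Kdm4c was at 1.89, 1.86 and 1.73 against 1.58, 1.66 and 1.58 (-0.18). Both were separated by genotype, with Kdm4a the richest of the 9 bodies in the mark. Kdm4b, the poorest, was at 1.25, 1.34 and 1.51 in +/+ and 1.40, 1.32 and 1.35 in Δ/D329A, with all Δ/D329A values inside the +/+ range (-0.01, interval -0.18 to 0.17).

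Among the writers, Setd2 was at 1.98, 1.99 and 1.88 RPM in +/+ and 1.46, 1.78 and 1.70 in Δ/D329A (-0.24, interval -0.42 to -0.06, limma adjusted p = 0.223). Whsc1 was at 2.06, 2.05 and 1.98 against 1.73, 1.85 and 1.67 (-0.20, limma adjusted p = 0.196). Genotypes were apart for both. Ash1l was at 2.10, 2.06 and 2.01 against 1.72, 1.96 and 1.69 (-0.19), and Nsd1 at 2.28, 2.32 and 2.20 against 1.92, 2.13 and 1.95 (-0.18). The second Δ/D329A animal came nearest to the +/+ animals for both genes. Whsc1l1 was at 1.65, 1.70 and 1.73 against 1.503, 1.555 and 1.504 (-0.15). For the 8 enzymes the level in Δ/D329A was 84.5% to 90.3% of that in +/+ on the scale with a pseudocount of 0.1 RPM, with adjusted p between 0.194 and 0.226.

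**Figure D5:**
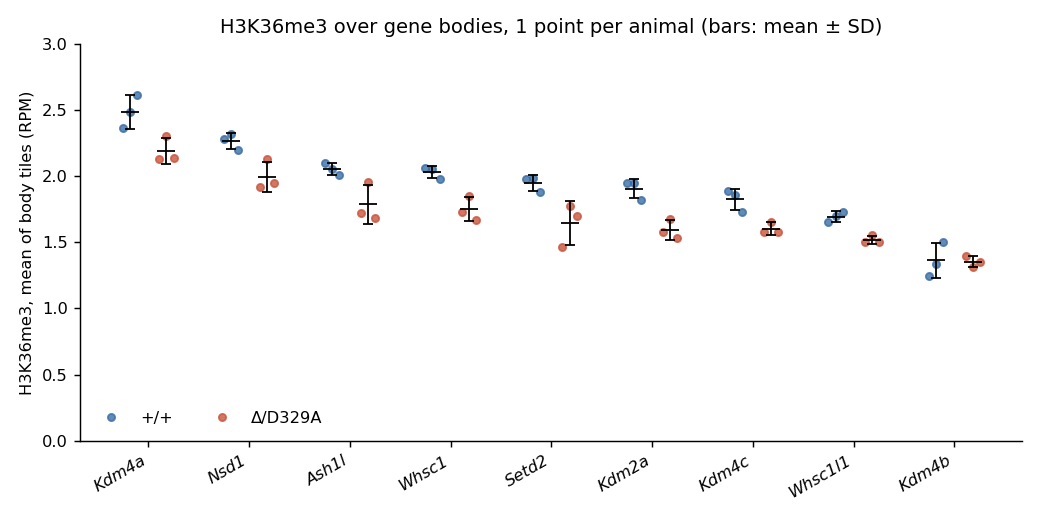
H3K36me3 over the gene bodies of the 9 enzymes in RPM, 1 point for each animal (n = 3 of each genotype) with bars for the mean and SD. Points of Δ/D329A lie below those of +/+ for 8 genes and among them for Kdm4b.

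The separation depended partly on scaling. As a ratio to each animal's input, 9 of 9 were lower, as were 61.0% of gene bodies, and 8 were without overlap, against 13.4%. With each library centred on its median, 8 of 9 were lower, as were 50.7% of gene bodies. Then 6 were without overlap, against 10.2%, and Nsd1, Ash1l and Kdm4b overlapped. These shares are over gene bodies of all levels, and shares by level class were not computed under these scalings. Differences ranged from -0.28 to -0.06 under the first scaling and from -0.22 to 0.02 under the second. RNA was from other animals, of the other sex, so whether transcript and mark differ together within 1 animal could not be tested.

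H3K27me3 was depleted over all 9 bodies, at 0.171- to 0.223-fold of input and below input in all 6 animals, as were 58.9% of gene bodies. It was lower in Δ/D329A in mean for 9 of 9, with no overlap for 4, against 16.1% of gene bodies, and 0 of 9 were called (background 0.0%). At an unadjusted p under 0.05 there were 2 of 9 by limma, beside 2864 of 20387 gene bodies. There were 3 of 9 by edgeR, beside 2944 of 19229, and edgeR called 35 gene bodies. Whsc1l1 was at 0.0823, 0.112 and 0.102 RPM in +/+ and 0.0494, 0.0565 and 0.0655 in Δ/D329A (-0.34, limma adjusted p = 0.320). Kdm4c was at 0.133, 0.138 and 0.106 against 0.0833, 0.0970 and 0.0888 (-0.25, limma adjusted p = 0.349). The other genes without overlap were Ash1l (-0.30) and Kdm4a (-0.13). All 9 bodies were in the lowest 3 of 10 classes by H3K27me3 level, where 79.3% to 90.8% of gene bodies were lower in Δ/D329A and 21.3% to 34.3% were so without overlap. Centring each library on its median left 2 of the 9 without overlap, against 11.3% of gene bodies of all levels.

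H3K4me3 over the bodies overlapped between genotypes for all 9, against 2.05% of bodies higher and 4.42% lower without overlap. In mean 3 were higher and 6 lower, and 0 of 9 were called (limma, background 0.00491%, and 0 by edgeR). At an unadjusted p under 0.05 there were 0 of 9, beside 661 of 20387 bodies by limma and 489 of 19406 by edgeR. H3K4me3 was highest over the body of Kdm2a, 3.16-fold over input, followed by Nsd1 at 2.37-fold, and lowest over Ash1l, at 0.628-fold. The body of Kdm4c, which also holds an H3K4me3 domain, was at 1.10-fold. Input itself overlapped at all 9 starts and at 8 of 9 bodies. The body of Kdm4a was at 0.901, 0.886 and 0.841 RPM in +/+ input and 0.986, 0.907 and 0.948 in Δ/D329A, higher without overlap, as were 7.38% of bodies (0.10, limma adjusted p = 0.791).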

How the data were processed

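Per the labels, reads were trimmed with Trim Galore 0.4.3 and aligned to GRCm38 with HISAT2 2.0.5 (RNA) or Bowtie2 2.3.2 (ChIP). The authors quantified RNA in SeqMonk over merged exons and deposited log2 RPKM values. A figure legend of the study calls its libraries strand-specific, and the strand setting of the counting is not given in the sources used here. Whole reads were recovered from their steps. For ChIP the authors deposited a coverage signal (RPM, scaled to uniquely mapped reads) in 2000 bp tiles every 1000 bp, and all values came out whole within 0.01 reads. For edgeR on ChIP, reads were summed over these overlapping tiles, so reads in the overlaps entered more than once. These sums are not counts of separate reads. Analyses used R 4.3.3, limma 3.58.1, edgeR 4.0.16, DESeq2 1.42.0, Python 3.11.15 and scipy 1.17.1.

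RNA was tested with limma (trend) on genes at 0.1 RPKM or more in at least 4 libraries, at an adjusted p of 0.01 (Benjamini-Hochberg, over all genes). Tiles were averaged per promoter and per body (at least 3 tiles), transformed as log2(value + 0.1), and tested with limma at an adjusted p of 0.05, so that folds of low values are understated. Fits were tested on simulated data. Exact tests permuted animals.

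The 9 genes and the lists of other genes were chosen with earlier results of these data known. The named genes were the 9 members, Dnmt3a, the 3 genes of smallest p in each list and the gene most like each member, which for Kdm4c is not reported here. Of 79 samples in the labels, 33 were used, and 46 bisulfite libraries were not analysed here.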

Additional observations from a re-analysis of the deposited data

Results flagged for a closer look

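Whsc1l1 in the first +/+ RNA library stood apart from the other animals of its group, at 2.05 log2 RPKM against 1.93 in the next highest library (Dixon's test). The same library was also the highest for 4 of the 9 enzymes. Of 18 groups tested 1 stood apart in this way, and chance gives about 1 in 20.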

How the results depend on the processing

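No enzyme was called under any alternative run: other filters, pseudocounts, region limits, scalings, edgeR, DESeq2, a block and leaving out each library. The lowest adjusted p of an enzyme was 0.371 for expression, 0.152 for promoter H3K4me3, 0.265 for promoter H3K27me3 and 0.0825 for body H3K36me3. Counts over all genes moved more, and the cause was not tested.

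For expression (19 genes), DESeq2 called 252, edgeR 77, median centring 34, quantile normalization 32, a filter of 0.5 RPKM 11, and leaving out 1 library 1 to 19. For promoter H3K4me3 (0), edgeR called 51, median centring 28 and leaving out 1 library 0. For body H3K4me3 (1), ratio to input and median centring called 2, and edgeR, expressed genes alone, other limits and leaving out 1 library 0. For promoter H3K27me3 (0), edgeR called 239, median centring 54, expressed genes alone 3 and leaving out 1 library 0. For body H3K27me3 (0), edgeR called 35 and leaving out 1 library 0 to 2. For promoter H3K36me3 (6), expressed genes alone gave 3, a pseudocount of 0.5 gave 1, ratio to input and median centring 0, and leaving out 1 library 5 to 19. For body H3K36me3 (0), edgeR called 125 and leaving out 1 library 0. For input promoters (0), median centring called 5, expressed genes alone 2, other limits 1 and leaving out 1 library 0 to 16, and for input bodies edgeR called 2 and leaving out 1 library 0.

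Same-numbered replicates deviated together unevenly for H3K4me3, with correlations of -0.37 to 0.386 over bodies and -0.261 to 0.234 at promoters. Correlations were -0.054 to 0.15 for expression, H3K27me3, H3K36me3 and input. They had no common sign, and the numbers were not taken as pairs. With the replicate number as a block, calls went from 19 to 16 for expression, from 6 to 0 for promoter H3K36me3 and from 1 to 0 for body H3K4me3, and the Nsd1 expression difference was -0.0132.

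Median log2 levels over input at the enzymes with a pseudocount of 0.5 were 4.11 (H3K4me3), -0.95 (H3K27me3) and -0.64 (H3K36me3) at promoters, and -1.24 (H3K27me3) and 0.75 (H3K36me3) over bodies. The medians without 1 library were taken with the main pseudocount of 0.1. They were 4.57 to 4.70, -2.18 to -1.85, -1.24 to -1.11, -2.49 to -2.40 and 0.94 to 1.02, in the same order. The pseudocount differs between these sets, so their gap does not measure the effect of leaving out a library. For body H3K4me3 other limits gave -0.18, and leaving out 1 library 0.28 to 0.33.

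Signs that turned were of small differences. For Nsd1 expression, quantile normalization gave -0.00532. For promoter H3K4me3, median centring gave 0.15 (Whsc1), 0.15 (Whsc1l1), 0.18 (Setd2) and 0.11 (Kdm4a), edgeR 0.0325, 0.0335 and 0.0633 for the first 3, ratio to input 0.16 (Whsc1l1), -0.00883 (Kdm2a) and -0.16 (Kdm4b), and for Kdm4b other limits -0.0142 and a mitochondrial coverage block -0.10. For promoter H3K27me3, ratio to input gave 0.000727 (Ash1l), -0.0884 (Kdm4a) and -0.0166 (Kdm4c), other limits -0.0668 (Kdm4c), and the mitochondrial block 0.0135 (Whsc1) and 0.21 (Ash1l). For Kdm4b body H3K36me3, median centring gave 0.0218 and edgeR 0.0307.

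Without 1 library, expression differences ran from -0.0132 to 0.0887 (Nsd1), -0.0903 to 0.0457 (Whsc1), -0.0656 to 0.0505 (Kdm2a), -0.11 to 0.15 (Kdm4a) and -0.15 to 0.0340 (Kdm4c). Promoter H3K4me3 ran from -0.13 to 0.0763 (Whsc1), -0.17 to 0.0866 (Whsc1l1), -0.0952 to 0.0939 (Setd2), -0.24 to 0.0642 (Kdm4a) and -0.10 to 0.19 (Kdm4b). Promoter H3K27me3 ran from -0.42 to 0.0646 (Nsd1), -0.22 to 0.28 (Whsc1), -0.33 to 0.35 (Whsc1l1), -0.49 to 0.22 (Ash1l), -0.0667 to 0.39 (Kdm4a) and -0.0159 to 0.18 (Kdm4c). Body H3K36me3 of Kdm4b ran from -0.0643 to 0.0630.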
